A study of Rattus norvegicus with 12 samples.

Results

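The comparison set the rat hepatic line GN5 against the line H5D with both under rapamycin. Its members were the 6 arrays of the series' 12 whose sample titles name rapamycin, 3 of GN5 and 3 of H5D, and a probe was tested if its detection p was at most 0.01 on all 3 arrays of at least 1 line. Total RNA was hybridised to Illumina RatRef-12 bead arrays. The rapamycin plates had 50 nM of the drug for 24 h, and the other 6 arrays held the same lines given its vehicle, dimethyl sulfoxide, for as long. GN5 descends from the rat liver epithelial line WB-F344 after transformation with N-methyl-N'-nitro-N-nitrosoguanidine, and H5D was established from a hepatocellular carcinoma that an azo dye had induced in a Fischer rat. Both lines form tumors and were classed as intermediate in sensitivity to the drug, with doubling times of 21.6 h (GN5) and 26.6 h (H5D). The authors reported a lower half-maximal inhibitory concentration of the drug for GN5 than for H5D. GN5 was grown in DMEM/F12 and H5D in Waymouth medium, so line and medium cannot be told apart in any line difference below. Each group was 3 plates of 1 line, and the spread that the p-values measure is that between plates. The question was which differences between the lines were present while mTOR was inhibited, and which of them were seen under the drug and not under vehicle.

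mTOR is a serine/threonine kinase that joins amino acid and growth factor supply to protein synthesis, lipid synthesis and autophagy. It works in a pair of complexes, mTORC1 and mTORC2. Rapamycin binds the small immunophilin FKBP12 (gene Fkbp1a), and the drug and protein together bind mTOR and inhibit mTORC1, which otherwise phosphorylates the ribosomal protein S6 kinases and the translation inhibitor 4E-BP1 (gene Eif4ebp1).

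GN5 and H5D differed over most of the expressed genome under rapamycin. Of 8288 probes tested, 5988 (72.2%) were called, that is, had an adjusted p below 0.05 in limma's moderated test, 3160 (38.1%) higher in GN5 and 2828 (34.1%) higher in H5D. The differences varied in size: 2335 of the calls (39%) were under 1.5-fold, 2049 were at least 2-fold, 756 at least 4-fold, 177 at least 16-fold and 37 at least 64-fold. A further view comes from detection, since 406 probes were detected on the 3 GN5 arrays and on no H5D array, and 741 on the 3 H5D arrays and on no GN5 array. The arrays of a line did not overlap those of the other for 74.1% of the tested probes. Array values correlated at 0.9906 to 0.9961 within a line and at 0.7947 to 0.801 between lines, and the median standard deviation (SD) of a probe within a line was 0.125 on the log2 scale. With 1 probe for each of the 6159 named genes tested, 4476 (72.7%) were called, 2254 (36.6%) higher in GN5 and 2222 (36.1%) higher in H5D, with a median log2 difference of 0.03. The split depended on the scaling: with each array set to a common median in place of quantile normalization, the median over probes moved from 0.05 to -0.17 and the calls were 1855 higher in GN5 and 3504 higher in H5D, or 34.6% higher in GN5 against 52.8%. All differences below are GN5 minus H5D on the quantile-normalized log2 scale unless stated otherwise, with n = 3 arrays per line. Counts of gene list members below are to be read beside the shares of all genes, 72.7% called, 36.6% higher in GN5 and 36.1% higher in H5D.

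The labels call the lines hepatic, and their defining markers were checked first. Albumin (Alb), transthyretin (Ttr), the hepatocyte transcription factor Hnf4a and the protease inhibitor Serpina1 were undetected on all arrays of both lines under both treatments. Vimentin (Vim), an intermediate filament protein of mesenchymal and cultured cells, was detected on every rapamycin array and was bright in both lines (13.05, 13.11 and 13.08 in GN5; 13.10, 13.10 and 13.20 in H5D). The endothelial markers Cdh5 and Vwf and the leukocyte marker Ptprc were undetected on all arrays. Of 9 leukocyte and macrophage genes on the array only Cd14 was tested, and the summed signal of the list was 288 to 322 in GN5 and 1750 to 2190 in H5D under rapamycin. Aif1, a macrophage protein, was detected on no GN5 array and on 2 of 3 H5D rapamycin arrays, near the lower limit of detection (5.63, 5.37 and 5.41). The part of these markers in the results was not tested.

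Genes for collagen, elastic fibres and the enzymes that cross-link them were among those that stood highest in GN5. The collagen chain Col1a2 read 13.12, 13.36 and 13.35 on the GN5 arrays and 4.47, 4.42 and 4.38 on the H5D arrays, where it was undetected. Such a gene has only a bound, since the dim line's true level is unknown, and the bound sets the mean of the bright line against the mean, over the dim line's arrays, of the lowest value among detected probes or the probe's own value, whichever is higher. By this bound Col1a2 was at least 235-fold higher in GN5 (adjusted p = 6.51e-15, limma). Lysyl oxidase (Lox), which cross-links collagen and elastin, read 13.03, 13.09 and 13.07 in GN5 against 4.57, 4.54 and 4.46 in H5D, a difference of at least 203-fold (adjusted p = 6.51e-15, limma). Elastin (Eln) read 12.03, 12.53 and 12.39 against 4.39, 4.38 and 4.41, or at least 121-fold (adjusted p = 5.49e-14, limma). The 3 GN5 arrays lay far above the 3 H5D arrays for each of these genes, with no overlap. The latent TGF-beta binding protein Ltbp2 (at least 94.3-fold), the collagen chain Col3a1 (at least 39.0-fold) and the cell-surface proteoglycan glypican 3 (Gpc3, at least 51.1-fold) were likewise detected in GN5 alone. Among genes detected in both lines, the lysyl hydroxylase Plod2 was 55.7-fold higher in GN5 (log2 5.80, SE 0.109), the secreted matrix protein Ccdc80 81.8-fold (6.35, SE 0.108) and the matrix glycoprotein Sparc 24.7-fold (4.63, SE 0.105). The reticulocalbin Rcn3 (52.0-fold), the serine protease Prss23 (25.9-fold) and the hypoxia-induced carbonic anhydrase Car9 (23.6-fold) were among the 10 largest of this kind.

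Of 18 tested genes for collagens and their cross-linking enzymes, 12 were higher in GN5 and 6 in H5D, with a median log2 difference of 2.21 beside 0.03 over all genes tested. The 6 that were higher in H5D included Col15a1 (-4.80) and Col18a1 (-2.75), chains of basement membrane zone collagens. Of 19 matrix proteins and proteoglycans, 14 were higher in GN5 and 2 in H5D (median 1.72). Among the 8 detected on all rapamycin arrays of both lines, 4 were higher in GN5 and 1 in H5D (median 0.51). The matrix Gla protein Mgp (at least 29.5-fold) was detected in GN5 alone. Fibulin 1 (Fbln1) went the other way and was at least 19.7-fold higher in H5D. Of 12 proteases and their inhibitors, 7 were higher in GN5 and 5 in H5D. Tissue plasminogen activator (Plat) was 22.5-fold higher in GN5 (4.49, SE 0.117) and the metalloprotease inhibitor Timp2, detected on 2 of 3 H5D arrays, 9.94-fold (3.31, SE 0.108), whereas stromelysin (Mmp3) and the protease inhibitor Serpine2 were undetected in GN5 and at least 12.7-fold and 16.5-fold higher in H5D.

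**Figure D1:**
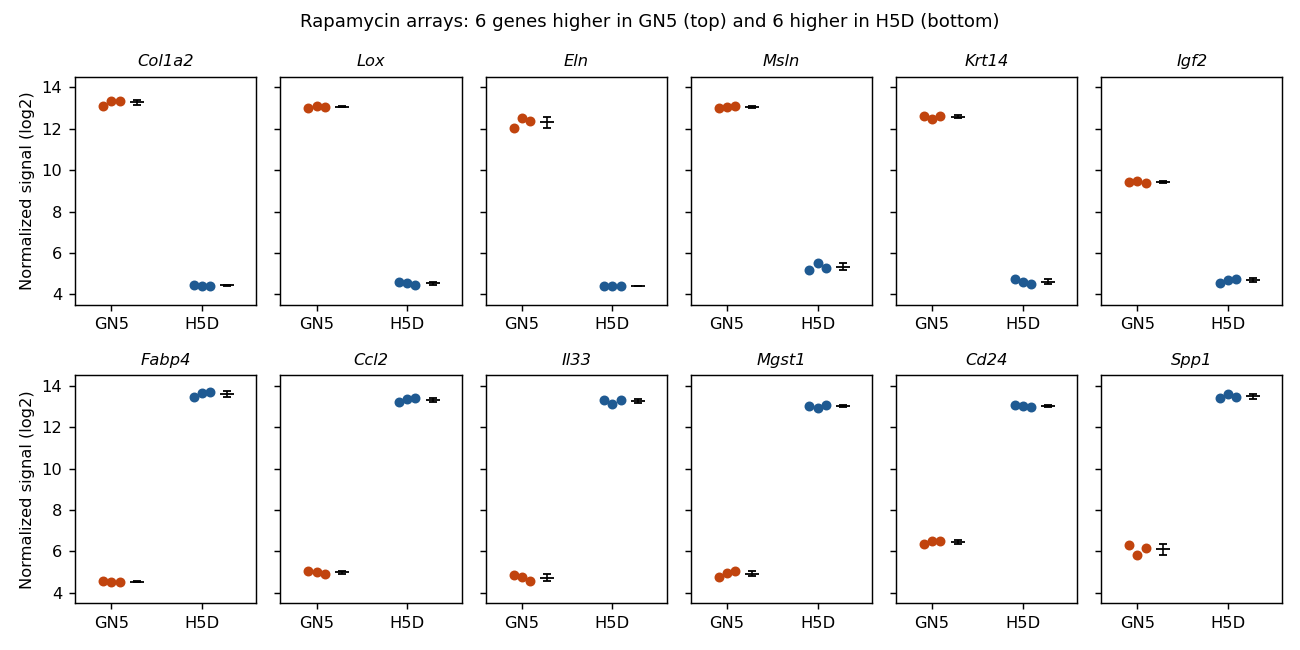
Normalized log2 signal (y axis) on each rapamycin array of GN5 (orange) and H5D (blue) for 12 genes, with the mean and SD beside the points (n = 3 per line). The lines do not overlap for any of the 12, with Col1a2 between 13.12 and 13.36 in GN5 and between 4.38 and 4.47 in H5D, and Fabp4 between 4.51 and 4.55 in GN5 and between 13.44 and 13.70 in H5D.

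GN5 also carried genes of the mesothelium, the lining of body cavities. All 5 tested mesothelial markers, of 8 on the array, were higher in GN5 (median 3.77). Only 1 of the 5 was detected on all rapamycin arrays of both lines. The others were tested through their detection in GN5, so the count is not independent of the direction. The summed signal of the list was 9650 to 10300 in GN5 and 115 to 131 in H5D. Mesothelin (Msln) read 13.02, 13.05 and 13.11 in GN5 and 5.17, 5.50 and 5.29 in H5D (7.73, SE 0.105, adjusted p = 1.92e-14, limma). It was detected on 1 of 3 H5D arrays, so the size of its fold is uncertain. The transcription factor Wt1 (at least 6.94-fold) and the uroplakin Upk1b (17.1-fold) were higher as well. Outside these lists, the basal epithelial keratin Krt14 (at least 145-fold), prostacyclin synthase (Ptgis, at least 117-fold), the angiotensin II receptor Agtr1a (at least 102-fold), the neutral sphingomyelinase Smpd3 (at least 72.5-fold), the tubulin Tuba3b (at least 176-fold) and Fam25a (at least 271-fold) were among the largest differences toward GN5. The MYC family transcription factor Mycn read 12.12, 12.07 and 12.07 in GN5 and 6.25, 6.54 and 6.4 in H5D, or 51.6-fold higher in GN5 (5.69, SE 0.100). Its relative Myc went the other way, at 8.38, 8.42 and 8.54 in GN5 and 11.63, 11.53 and 11.49 in H5D, an 8.61-fold difference toward H5D (-3.11, SE 0.0945).

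Chemokines and other inflammatory genes were among those that stood highest in H5D. The monocyte chemokine Ccl2 read 5.04, 5.01 and 4.88 on the GN5 arrays and 13.22, 13.38 and 13.40 on the H5D arrays, and it was undetected in GN5 and at least 219-fold higher in H5D (adjusted p = 7.07e-15, limma). The alarmin Il33 read 4.87, 4.74 and 4.57 against 13.33, 13.14 and 13.32, or at least 209-fold higher in H5D (adjusted p = 8.03e-15, limma). Every H5D array lay above every GN5 array for both. The chemokines Ccl20 (at least 132-fold), Ccl7 (at least 116-fold) and Cx3cl1 (at least 60.6-fold) were also undetected in GN5. Of 20 tested chemokine, cytokine and NF-kappaB genes, 16 were higher in H5D and 4 in GN5 (median -2.71), and all 20 were called. The 4 that were higher in GN5 were the B cell chemokine Cxcl13 (at least 5.71-fold), the chemokine Cxcl12 (6.71), the Il33 receptor Il1rl1 (4.82) and the macrophage growth factor Csf1 (0.41, fitted log2 differences). Of the 7 list members detected on all rapamycin arrays of both lines, 6 were higher in H5D and 1 in GN5, so some fitted values exceed what detection allows.

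NF-kappaB is a transcription factor that drives many of these genes in inflammation, so the sequences ahead of their starts were searched for its motif, GGGA and TTCC with any 2 bases between them, and for the reverse complement, GGAA and TCCC at the same spacing. RefSeq promoters of the GRCr8 assembly (250 bases before to 50 after the gene start) were at hand for 18 of the 20 members. Of these, 6 (33.3%) held the motif, against 1.38% of the 27457 genes with a promoter in the table, and all 6 (Ccl7, Cxcl10, Cxcl1, Nfkbia, Nfkb1 and Nfkb2) were higher in H5D. The 250 bases upstream are shown for 3 of them, to place the motif beside genes at the H5D end of the comparison, with matches in capitals. They are those of Ccl7 (chr10:67513845-67514094, plus strand), Cxcl1 (chr14:17479322-17479571, minus strand) and Cxcl10 (chr14:15988816-15989065, plus strand), whose fitted log2 differences were -7.71, -3.90 and -4.52. Ccl7 was undetected in GN5, so its fitted value is not its true fold. In Cxcl1, and in the second stretch of Cxcl10, matches on the 2 strands overlap by all but 1 base. The list was chosen to hold chemokine, cytokine and NF-kappaB genes, and 16 of its 20 tested members were higher in H5D. The motif counts are therefore descriptions. A match of letters is a description and not a shown binding site.
Ccl7: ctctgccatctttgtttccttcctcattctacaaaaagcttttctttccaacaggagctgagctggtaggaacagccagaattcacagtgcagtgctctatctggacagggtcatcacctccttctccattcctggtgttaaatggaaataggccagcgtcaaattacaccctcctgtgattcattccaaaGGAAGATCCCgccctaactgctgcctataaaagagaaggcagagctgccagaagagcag
Cxcl1: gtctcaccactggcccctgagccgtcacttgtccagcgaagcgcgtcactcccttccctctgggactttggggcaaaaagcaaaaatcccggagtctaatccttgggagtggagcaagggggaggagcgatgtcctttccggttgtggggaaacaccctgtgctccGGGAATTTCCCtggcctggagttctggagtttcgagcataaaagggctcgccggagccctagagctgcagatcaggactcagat
Cxcl10: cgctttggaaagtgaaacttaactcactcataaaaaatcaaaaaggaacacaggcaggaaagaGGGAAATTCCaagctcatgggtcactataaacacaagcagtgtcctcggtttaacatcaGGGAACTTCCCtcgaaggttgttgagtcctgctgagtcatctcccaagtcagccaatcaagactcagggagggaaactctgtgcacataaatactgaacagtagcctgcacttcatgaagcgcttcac

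Of the other genes near the H5D end, several are known from fat, bile duct or progenitor cells. The fatty acid-binding protein Fabp4 read 4.55, 4.51 and 4.52 in GN5, where it was undetected, and 13.44, 13.66 and 13.70 in H5D, at least 264-fold higher in H5D (adjusted p = 6.51e-15, limma). Osteopontin (Spp1), a secreted phosphoprotein of bile duct cells and bone, read 6.31, 5.80 and 6.15 against 13.39, 13.61 and 13.47, a 169-fold difference (-7.40, SE 0.129). The surface glycoprotein Cd24, a marker of hepatic progenitor cells, was 95.2-fold higher in H5D (-6.57, SE 0.0935) and the iron-binding lipocalin Lcn2 at least 23.0-fold. Of 8 tested biliary and progenitor markers, 6 were higher in H5D and 1 in GN5 (median -3.08), with a summed signal of 7170 to 7730 in GN5 and 30100 to 31500 in H5D. Among their defining markers, the keratin Krt7 was detected on all arrays of both lines and higher in H5D (-2.66), and Epcam was undetected in both. Krt19 was detected in H5D alone, so its fitted value (-2.69) is larger in size than its bound. Tissue-nonspecific alkaline phosphatase (Alpl, 32.7-fold), the liver-intestine cadherin Cdh17 (22-fold), the interferon-induced Ifitm1 (20.8-fold) and the small heat shock protein Hspb1 (19.6-fold) were among the largest differences toward H5D of genes detected in both lines. Mnda, an interferon-induced nuclear protein, was 28.8-fold higher in H5D at its brighter probe (-4.85) and less so at the other (-0.39). The surface protein Cd83 of activated dendritic cells was undetected in GN5 and at least 171-fold higher in H5D, and Plet1 at least 50.5-fold.

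Of 47 hepatocyte genes on the array 15 were tested, 9 higher in H5D and 6 in GN5 (median -1.93). The summed signal of the list was 1630 to 1830 in GN5 and 5930 to 7330 in H5D. The asialoglycoprotein receptor subunit Asgr1 (at least 12.9-fold), the urea cycle enzyme Ass1 (at least 10.0-fold) and the vitamin D-binding protein Gc (at least 6.19-fold) were undetected in GN5, and the iron carrier transferrin (Tf) was 15.0-fold higher in H5D (-3.91, SE 0.130). Among members detected on all arrays of both lines the median of the list was 0.65, so its direction rested on genes that GN5 arrays did not detect. Of 10 mesenchymal and stellate cell markers, 4 were higher in each line. The smooth muscle protein Tagln (at least 13-fold) and tropomyosin 1 (Tpm1, 19.6-fold) were higher in GN5, and the calcium-binding protein S100a4 (5.71-fold) in H5D.

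Homeobox genes give cells their position along the body axis. Of 19 on the array 7 were tested, and the 4 HoxB genes were higher in H5D and the 3 HoxA genes in GN5. Only 3 of the 7 were detected on all rapamycin arrays of both lines, 1 higher in GN5 and 2 in H5D. The others were tested through their detection in 1 line, so the counts are not independent of the direction. Hoxb7 read 5.52, 5.54 and 5.44 in GN5 and 11.72, 11.60 and 11.66 in H5D (at least 68.9-fold, adjusted p = 3.84e-14, limma), and Hoxb8 was 26.0-fold higher in H5D (-4.70, SE 0.107). Hoxa7 was undetected in H5D and at least 5.66-fold higher in GN5. With arrays scaled to a common median, 2 of the 3 HoxA genes were called. Of 10 transcription factors of liver and mesoderm, 5 were higher in GN5 and 3 in H5D. Gata4 (at least 4.64-fold), Tbx18 (at least 3.04-fold), Gata6 (3.35-fold) and Klf4 (15.5-fold, detected on 2 of 3 H5D arrays) were higher in GN5.

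Targets of YAP and TEAD, the coactivator and transcription factors through which cells answer stretch and attachment, were mostly higher in GN5. Of 20 tested, 13 were higher in GN5 and 6 in H5D (median 1.00). The matricellular proteins Ccn4 (at least 29.6-fold) and Ccn1 (23.8-fold, 4.57, SE 0.126) and the growth factor Tgfb2 (15.5-fold, 3.95, SE 0.113) led the GN5 side. Ccn2, another of this family, read 13.84, 13.73 and 13.67 in GN5 and 10.92, 10.91 and 10.79 in H5D (7.35-fold, 2.88, SE 0.0951, adjusted p = 3.66e-11, limma). Their relative Ccn3 and the EGF receptor ligand Areg were undetected in GN5 and at least 12.8-fold and 6.75-fold higher in H5D. The core of the TEAD motif, GGAATG or CATTCC on the other strand, lay in the promoters of 5 of 14 members with an entry (35.7%), beside 15.0% of all genes, and all 5 (Ccn2, Ccn1, Ajuba, Ptpn14 and Nuak2) were higher in GN5. The 250 bases ahead of Ccn2 (chr1:22624615-22624864, minus strand) held it 3 times and those of Ccn1 (chr2:237225690-237225939, minus strand) once. They are shown, with matches in capitals, because the line difference of Ccn2 also changed the most with the drug among the named genes, as described further on. The list was chosen as targets of YAP and TEAD, and 13 of its 20 tested members were higher in GN5, so the motif counts are descriptions.
Ccn2: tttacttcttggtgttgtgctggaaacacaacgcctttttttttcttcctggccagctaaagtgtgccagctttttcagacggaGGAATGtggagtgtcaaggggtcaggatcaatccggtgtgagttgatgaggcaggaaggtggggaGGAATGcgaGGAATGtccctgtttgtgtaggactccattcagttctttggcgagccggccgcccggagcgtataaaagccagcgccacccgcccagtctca
Ccn1: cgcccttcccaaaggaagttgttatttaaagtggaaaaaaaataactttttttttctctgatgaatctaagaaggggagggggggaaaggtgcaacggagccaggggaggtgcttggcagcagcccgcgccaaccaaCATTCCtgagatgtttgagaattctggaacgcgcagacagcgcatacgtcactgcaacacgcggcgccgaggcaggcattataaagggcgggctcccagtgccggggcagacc

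Other signalling genes followed several directions. Of 22 TGF-beta and BMP genes, 14 were higher in GN5 and 3 in H5D (median 0.87). The latent TGF-beta binding protein Ltbp1 was 26.4-fold higher in GN5 (4.72, SE 0.167), and the pseudoreceptor Bambi, which dampens TGF-beta signalling, was undetected in GN5 and at least 18.9-fold higher in H5D. Of 20 growth factors and receptors, 11 were higher in GN5 and 9 in H5D. Hbegf (at least 6.59-fold), a ligand of the EGF receptor, and the vasoconstrictor endothelin 1 (Edn1, 8.02-fold) were higher in GN5. In the insulin-like growth factor axis 5 of 10 genes were higher in each line. The ligand Igf2, an imprinted fetal growth factor, read 9.42, 9.49 and 9.39 in GN5 and 4.56, 4.70 and 4.76 in H5D (at least 16.4-fold, adjusted p = 4e-13, limma), and the insulin receptor substrate Irs1 was 5.66-fold higher in GN5. The receptor Igf2r, which clears Igf2, was 10.1-fold higher in H5D (-3.34, SE 0.108). Dusp1, a phosphatase that switches off MAP kinases, read 11.82, 11.70 and 11.86 in GN5 and 7.07, 7.08 and 7.32 in H5D (24.8-fold, 4.63, SE 0.103).

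Metabolic genes differed most in glutathione and detoxification. Of 29 tested genes of glutathione use and the NRF2 response, 21 were higher in H5D and 4 in GN5 (median -0.76). Microsomal glutathione transferase Mgst1 read 4.77, 4.93 and 5.04 in GN5 and 13.04, 12.95 and 13.07 in H5D (at least 177-fold, adjusted p = 8.03e-15, limma). Glutathione peroxidase Gpx2 was at least 39.6-fold higher in H5D, and Akr1b8, an aldo-keto reductase, 30.7-fold. The cytochrome P450 Cyp1b1 (at least 13-fold), heme oxygenase Hmox1 (log2 difference 1.03), the glutathione synthesis subunit Gclc (1.08) and the carbonyl reductase Cbr1 (0.56) were the 4 that were higher in GN5. The core of the antioxidant response element bound by NRF2, TGACNNNGC or GCNNNGTCA, was in the promoters of 6 of 24 members (25.0%) and of 13.1% of all genes, and 4 of the 6 (Gpx2, Gstp1, Ephx1 and Prdx1) were higher in H5D while Gclm (0.04) and Txnrd1 (-0.17) were not called. The upstream bases of Gpx2 (chr6:101230034-101230283, minus strand) are shown with the match in capitals, as the member with the motif that differed most. The list was chosen to hold NRF2 response genes, and 21 of its 29 tested members were higher in H5D, so the motif counts are descriptions.
Gpx2: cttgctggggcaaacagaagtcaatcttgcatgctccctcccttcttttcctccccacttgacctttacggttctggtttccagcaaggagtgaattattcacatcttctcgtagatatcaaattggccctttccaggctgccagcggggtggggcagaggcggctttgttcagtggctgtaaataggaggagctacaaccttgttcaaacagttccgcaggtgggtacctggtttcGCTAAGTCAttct

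In lipid synthesis the stearoyl-CoA desaturases, which introduce the double bond of oleate, ran in opposite directions. Scd2 read 6.54, 7.07 and 6.91 in GN5 and 11.98, 11.87 and 11.55 in H5D (31.1-fold higher in H5D, -4.96, SE 0.146), and Scd read 6.79, 6.72 and 6.60 in GN5 and was undetected in H5D (at least 2.47-fold higher in GN5). The genes are close paralogs, and cross-hybridization of their probes was not tested. Of 15 fatty acid synthesis genes, 8 were higher in H5D, among them the triglyceride enzyme Dgat2 (7.80-fold) and the lipogenic transcription factor Srebf1 (3.39-fold), and 3 in GN5, among them the desaturase Fads2 (at least 3.67-fold). Of 14 cholesterol synthesis genes, 8 were higher in GN5 and 1 in H5D (median 0.37, and 6 and 1 with arrays scaled to a common median), with Dhcr7 (2.06-fold) and Fdft1 (2.02-fold) ahead. Of 20 genes of glycolysis and lactate, 12 were higher in H5D and 4 in GN5 (median -0.38). The phosphofructokinase Pfkp (6.56-fold), lactate dehydrogenase Ldhb (5.68-fold) and the lactate transporter Slc16a1 (5.35-fold) were higher in H5D and the enolase Eno3 (5.46-fold, detected on 2 of 3 H5D arrays) in GN5. Pgk1, a glycolytic kinase, was 1.24-fold higher in H5D (-0.31, SE 0.0978, adjusted p = 0.0139, limma), a call that ended without GN5 rapamycin replicate 3 (adjusted p = 0.058).

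**Figure D2:**
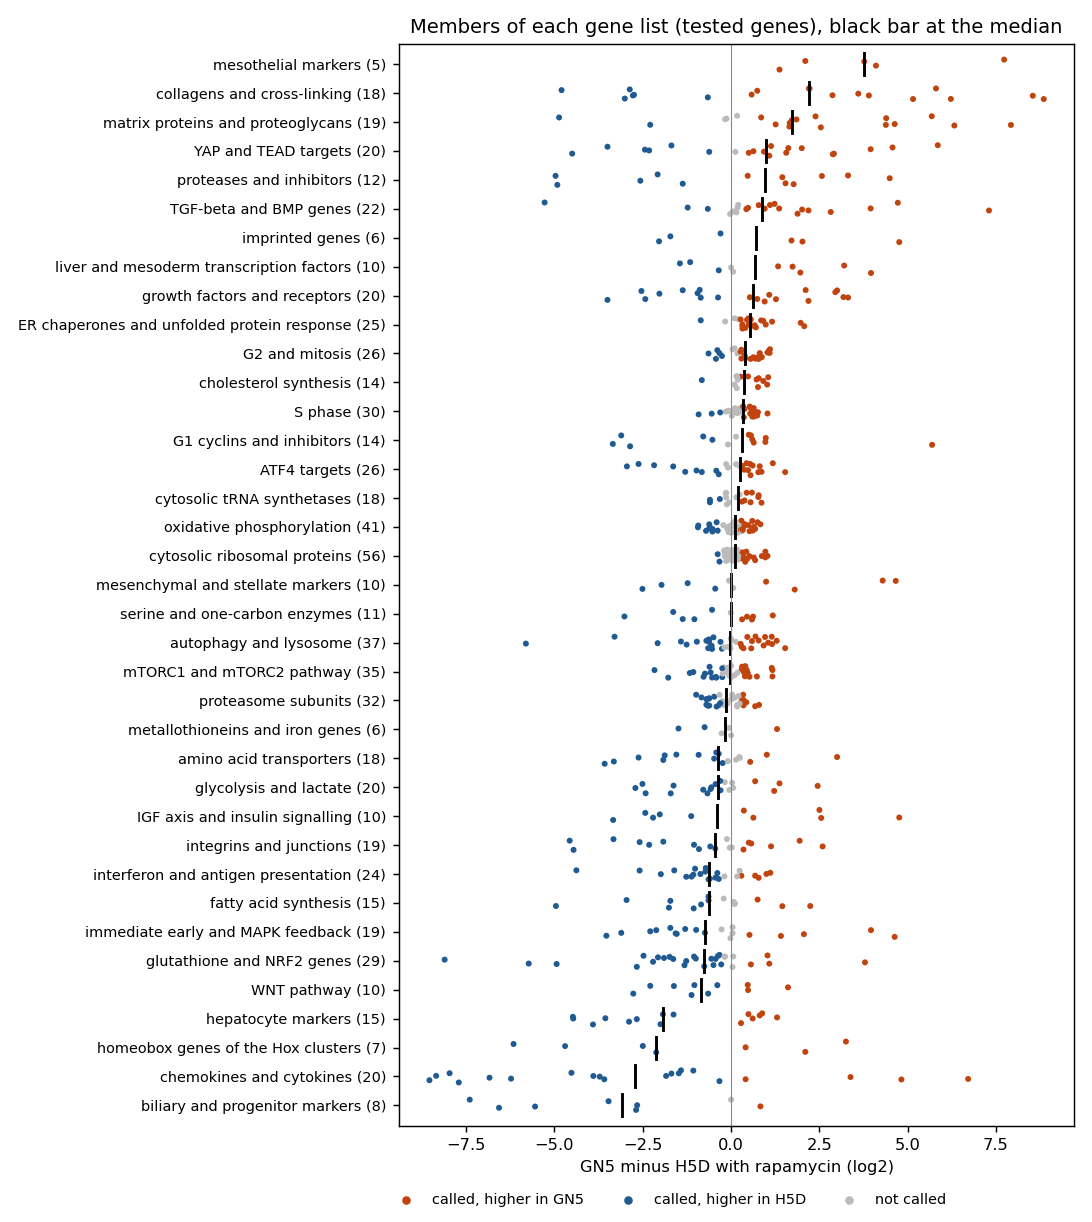
Log2 difference, GN5 minus H5D under rapamycin (x axis), of each tested member of 37 gene lists (rows, with the number tested), colored by call and with a black bar at the median. Mesothelial markers (median 3.77) and collagen genes (2.21) lie toward GN5, and chemokines (-2.71) and biliary markers (-3.08) toward H5D, while the mTOR pathway (-0.04) is centred near 0.

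The drug's target and its binding partner differed between the lines by 1.5-fold or less. Mtor read 7.42, 7.56 and 7.56 in GN5 and 8.08, 8.02 and 8.19 in H5D, 1.5-fold higher in H5D (-0.58, SE 0.0953, adjusted p = 0.000142, limma), and Fkbp1a, which encodes the drug's binding partner, was 1.34-fold higher in H5D (-0.42, SE 0.104, adjusted p = 0.00306). The arrays of the lines did not overlap for either gene. Rps6kb1, the S6 kinase downstream of mTORC1, read 8.52, 8.47 and 8.59 against 8.47, 8.53 and 8.53 and was not called (0.01, SE 0.0900), and neither was its substrate Rps6 (0.18, SE 0.0897, adjusted p = 0.0871). The kinase Akt1, upstream of mTORC1, was 1.66-fold higher in GN5 (0.73, SE 0.126). The mTORC1 subunit Rptor was undetected on all rapamycin arrays. Of 35 tested genes of the mTORC1 and mTORC2 pathway, 13 were higher in each line and 9 were not called (median -0.04), which is 4 higher in GN5 and 18 in H5D with arrays scaled to a common median. The share called was 74.3%, near the 72.7% of all genes. The kinase Sgk1, a target of mTORC2, was 4.5-fold higher in H5D and the GTPase Rragd at least 2.57-fold, while elongation factor Eef2 and its kinase Eef2k were 2.25-fold and at least 1.81-fold higher in GN5.

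Genes under ATF4, a transcription factor of amino acid shortage that mTORC1 activates, were divided. Of 26 tested, 12 were higher in GN5 and 9 in H5D (median 0.24). Asparagine synthetase (Asns, at least 3.65-fold), the cysteine synthesis enzyme Cth (at least 3.49-fold), the glutamine transporter Slc1a5 (6.14-fold, detected on 2 of 3 GN5 arrays) and mitochondrial serine hydroxymethyltransferase (Shmt2, 3.12-fold) were higher in H5D. Phosphoglycerate dehydrogenase (Phgdh), the first enzyme of serine synthesis, was 2.27-fold higher in GN5 (1.18, SE 0.102), and the stress cofactor Nupr1 was higher in GN5 as well (1.53). The motif of ATF4 with its C/EBP partner, TGATGNAA or TTNCATCA, was in the promoters of 6 of 23 members (26.1%) and of 4.16% of all genes. Of these 6, 5 (Nupr1, Cars1, Aars1, Nars1 and Slc1a4) were higher in GN5 and Slc7a1 (0.23) was not called. The list was chosen as ATF4 targets, so the motif counts are descriptions. The upstream bases of Nupr1 (chr1:190645902-190646151, minus strand) and of the alanyl-tRNA synthetase Aars1 (chr19:55908232-55908481, plus strand, 1.70-fold) are shown with matches in capitals, because the members with the motif lay on the GN5 side of a list that was otherwise divided.
Nupr1: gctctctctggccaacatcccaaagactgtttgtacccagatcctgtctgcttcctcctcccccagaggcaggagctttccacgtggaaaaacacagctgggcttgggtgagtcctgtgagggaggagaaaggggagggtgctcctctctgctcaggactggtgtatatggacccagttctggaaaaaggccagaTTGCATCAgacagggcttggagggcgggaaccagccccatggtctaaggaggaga
Aars1: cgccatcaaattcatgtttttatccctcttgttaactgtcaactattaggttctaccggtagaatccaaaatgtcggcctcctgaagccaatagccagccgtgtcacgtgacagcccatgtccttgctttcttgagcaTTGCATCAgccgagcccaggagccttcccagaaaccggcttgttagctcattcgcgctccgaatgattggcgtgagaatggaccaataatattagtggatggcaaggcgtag

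Of 18 cytosolic tRNA synthetases, 8 were higher in GN5 and 3 in H5D (median 0.20), or 61.1% called against 72.7% of all genes. The sign of the median turned with arrays scaled to a common median (5 and 8, median -0.06). Of 18 amino acid transporters, 11 were higher in H5D and 3 in GN5 (median -0.38), with the glutamine transporter Slc38a1, detected on 1 of 3 GN5 arrays, 12-fold and the cationic amino acid exchanger Slc7a7 at least 4.43-fold higher in H5D, and the creatine transporter Slc6a8 at least 5.60-fold higher in GN5. Of 25 chaperones and unfolded protein response genes of the endoplasmic reticulum, 21 were higher in GN5 and 1 in H5D (median 0.53; 13 and 2 with common-median scaling), led by Sdf2l1 (4.19-fold) and Herpud1 (3.92-fold), which serves degradation of misfolded proteins. Of 56 cytosolic ribosomal proteins, 18 were higher in GN5 and 2 in H5D (median 0.10), so that 36 of the 56 were not called where 72.7% of all genes were. Of 37 autophagy and lysosome genes, 15 were higher in each line (9 and 17 with common-median scaling). The lysosomal proteases Ctsc (at least 35.2-fold), Ctsh (at least 6.43-fold) and Ctsl (4.22-fold) were higher in H5D and the autophagy lipid scramblase Atg9a (2.88-fold) in GN5.

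Cell cycle genes differed in small steps except at the G1 regulators. Cyclin D1 (Ccnd1), which drives G1 progression, read 10.49, 10.38 and 10.48 in GN5 and 13.20, 13.39 and 13.33 in H5D, 7.25-fold higher in H5D (-2.86, SE 0.0952). The CDK4 inhibitor Cdkn2b was undetected in GN5 and at least 6.14-fold higher in H5D. The inhibitor p27 (Cdkn1b) was 1.47-fold higher in GN5 (0.56, SE 0.0926, adjusted p = 0.000165, limma), a call that ended with arrays scaled to a common median (adjusted p = 0.102). Cyclin E1 (Ccne1) overlapped between the lines and was not called (-0.09, SE 0.115). Of 30 S phase genes, 16 were higher in GN5 and 3 in H5D (median 0.35), and of 26 genes of G2 and mitosis, 18 were higher in GN5 and 5 in H5D (median 0.39). The largest differences of the G2 and mitosis list were those of Prc1, a spindle protein (2.15-fold), Nuf2, a kinetochore protein (2.13-fold), cyclin A2 (Ccna2, 2.10-fold) and cyclin B2 (Ccnb2, 2.05-fold). With common-median scaling the counts were 8 and 5 for S phase and 12 and 5 for G2 and mitosis.

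Most of these line differences were also present without the drug. On the 6 vehicle arrays, 5238 of 8279 probes tested (63.3%) were called, 32.3% higher in GN5 and 31% higher in H5D, and the comparison shared no array with that under rapamycin. Of the 5988 rapamycin calls, 4648 (77.6%) were called under vehicle in the same direction, 2371 higher in GN5 and 2277 in H5D. Seen from the other side, they were 88.7% of the 5238 vehicle calls, of which 105 were not tested under rapamycin. Over 8028 probes tested under both treatments the line differences correlated at r = 0.98 (Spearman 0.947), as a description over probes that share 12 arrays and 1 normalization. Col1a2 differed by 8.95 under vehicle and 8.85 under rapamycin, Lox by 8.49 and 8.54, Fabp4 by -8.96 and -9.07, and Ccl2 by -8.36 and -8.35. These 4 genes are known only to a bound in the dim line, so the fitted values are neither their true fold nor their true order.

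**Figure D3:**
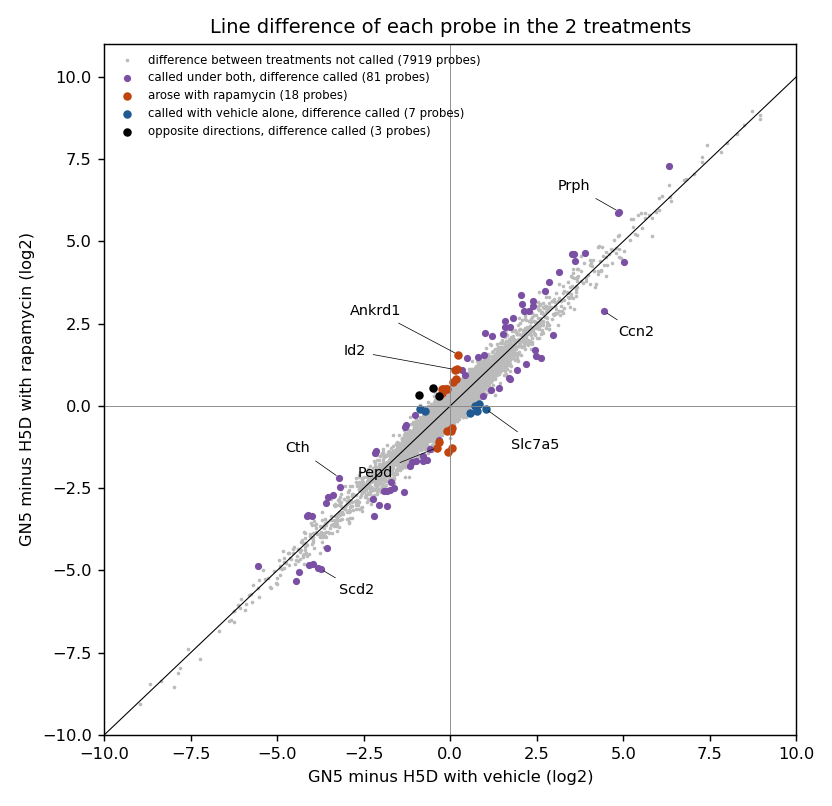
Each point is a probe tested under both treatments, with its log2 difference GN5 minus H5D under vehicle (x axis) and under rapamycin (y axis), and the diagonal marks equal differences. Most of the 8028 probes lie along the diagonal, and colored points are those whose difference between treatments was called, among them Ccn2 (4.44 and 2.88) and Ankrd1 (0.22 and 1.56).

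A call in one treatment and not in the other does not show that the treatments differ, so the difference between the line contrasts was tested itself over all 12 arrays. Of 8539 probes, 120 (1.41%) were called, 63 shifted toward GN5 under rapamycin and 57 toward H5D, and 1235 had an unadjusted p below 0.05. Of the 4648 differences found under both treatments 81 had changed in size, 54 wider and 27 narrower under rapamycin. Another 1331 probes were called under rapamycin alone, and in only 23 of these was the change itself called. Of the 1125 of them that were also tested under vehicle, 985 (87.6%) had the same sign there, with a median absolute log2 difference of 0.19 under vehicle. Under rapamycin the median absolute difference was 0.40, over all 1331. The number of called changes leaned on single arrays: it was 74 without H5D vehicle replicate 1, 73 and 58 without H5D rapamycin replicates 1 and 2, 61 without GN5 vehicle replicate 2, and 73, 70 and 67 without GN5 rapamycin replicates 1, 2 and 3. GN5 vehicle replicates 2 and 3 had the highest raw median signals (105.9 and 96.17, against 74.28 to 82.70 on the others), and leaving out this pair, a choice made with the data in view, gave 14 called changes.

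The 23 probes, 13 higher in GN5 and 10 in H5D, were called under rapamycin, were not called or not tested under vehicle, and had a called change. Of these, 16 carried a gene name. Ankrd1, a muscle and YAP-responsive ankyrin protein, read 8.09, 7.84 and 7.71 in GN5 and 6.32, 6.34 and 6.29 in H5D under rapamycin, 2.96-fold higher in GN5 (1.56, SE 0.109, adjusted p = 5.62e-08, limma). Under vehicle it read 6.57, 6.43 and 6.36 in GN5 and 6.35, 6.01 and 6.34 in H5D (0.22, adjusted p = 0.149), and the change was 1.34 (SE 0.168, adjusted p = 0.00157). Thus the 3 GN5 rapamycin arrays stood above the other 9. Rab17, a GTPase of epithelial membrane traffic, read 6.67, 6.47 and 6.55 in GN5 and 4.65, 4.77 and 4.64 in H5D, where it was undetected (at least 2.24-fold). Under vehicle it was detected on 2 of 3 GN5 arrays (5.55, 5.41 and 5.89) and on no H5D array, so it was not tested there. A line difference of Rab17 under vehicle is thus not excluded. Its mean was 0.95 higher with rapamycin than with vehicle in GN5 and changed by -0.24 in H5D. The change in line difference was 1.19 (SE 0.174, adjusted p = 0.00323, limma). Id2, an inhibitor of basic helix-loop-helix transcription factors, moved in both lines. It read 10.55, 10.53 and 10.60 in GN5 and 9.31, 9.53 and 9.53 in H5D under rapamycin, 2.15-fold higher in GN5 (1.1, SE 0.0971, adjusted p = 5.36e-07, limma), against 10.14, 10.11 and 10.15 and 10.06, 9.91 and 9.98 under vehicle. The mean was 0.43 higher with rapamycin than with vehicle in GN5 and changed by -0.53 in H5D, a change in line difference of 0.95 (SE 0.129, adjusted p = 0.00224).

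On the H5D side the gene closest to the drug's target was Eif4ebp1, which encodes 4E-BP1. It read 10.45, 10.16 and 10.05 in GN5 and 10.93, 10.98 and 10.99 in H5D under rapamycin, 1.67-fold higher in H5D (-0.74, SE 0.112, adjusted p = 7.16e-05, limma). Under vehicle the lines overlapped, at 11.11, 11.02 and 11.03 in GN5 and 11.02, 11.26 and 10.89 in H5D, with a mean difference of 0.00 (SE 0.121). The change of -0.74 (SE 0.166, adjusted p = 0.0415) held in 2 of the 12 refits that each left out 1 array, with adjusted p up to 0.211 over the settings tried. The iron exporter Slc40a1 differed by 0.01 (SE 0.133) under vehicle and was 1.68-fold higher in H5D under rapamycin (-0.75, SE 0.0892), with GN5 at 6.13, 6.2 and 6.15 and H5D at 6.87, 6.96 and 6.90. Its change of -0.76 held in 5 of the 12. Prolidase (Pepd), which splits proline dipeptides, was 2.42-fold higher in H5D (-1.27, SE 0.105) against -0.38 under vehicle, and held in 1 of the 12. For Pepd the drug and vehicle means differed by 0.00 in GN5 and by 0.90 in H5D.

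Most of the other named genes in this class had smaller changes, 0.64 to 0.76 toward GN5 (Lypd6b, Cables1, Rom1, Rsrp1, Mmaa, Mybph and Ddah1) and -0.70 to -0.84 toward H5D (Hint3 and Lgi4). Lypd6b, a protein of the Ly6 family, was undetected on every array but the GN5 rapamycin arrays (6.04, 5.91 and 6.05), and its change held in all 12 refits, as did those of Ankrd1, Rab17 and Id2. However, the change of Lypd6b was not called without background correction or in the authors' table, nor that of Id2 with common-median scaling. Changes of the other genes named in this class held in 1 to 6 of the 12. The remaining gene, the olfactory receptor gene Or14a257b, lay outside the rule for named genes and had a change of 0.62 (adjusted p = 0.0462). Of the 23 probes, 14 had moved further from vehicle in GN5 and 9 in H5D, and in 17 the lines had moved in opposite directions. Over all 8288 probes tested under rapamycin, 4202 had moved further in GN5, and in 3447 the lines had moved in opposite directions. The 23 were picked for their change in line difference, which by itself favours opposite moves, so their counts are descriptions. The number of probes that arose was 13 without H5D vehicle replicate 1, 12 and 8 without H5D rapamycin replicates 1 and 2, 8 without GN5 vehicle replicate 2, 13, 12 and 11 without GN5 rapamycin replicates 1, 2 and 3, and 4 without GN5 vehicle replicates 2 and 3 together.

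A set of 9 probes were called in opposite directions under the treatments, and the change was called for 3 of them, all with small differences. The neurotrophin Bdnf read 6.82, 6.87 and 6.97 in GN5 and 6.37, 6.35 and 6.36 in H5D under rapamycin (1.44-fold higher in GN5, 0.53, SE 0.0905, adjusted p = 0.000213, limma). Under vehicle it read 5.99, 5.69 and 6.03 in GN5 and 6.45, 6.31 and 6.42 in H5D, 1.40-fold higher in H5D (-0.49, SE 0.122, adjusted p = 0.00478). The arrays of the lines did not overlap under either treatment, and the change was 1.02 (SE 0.144, adjusted p = 0.00258). With common-median scaling Bdnf was not called under rapamycin (adjusted p = 0.151). Hap1, a huntingtin-associated protein, changed by 1.23 and the RAS-like GTPase Rasl11b by 0.62, but their rapamycin calls ended in 5 and 4 of the 14 alternative settings. The differences of the other 5 named genes of this kind (Slc28a2, Lsm11, Slc6a9, Pygo2 and Efhd2) lay between -0.35 and 0.42 under rapamycin, and their changes were not called (adjusted p 0.0732 to 0.121).

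The reverse class held 7 probes, called under vehicle and not under rapamycin with the change called, of 476 called under vehicle alone. The large neutral amino acid transporter Slc7a5, which supplies leucine to mTORC1, read 8.99, 9.02 and 8.83 in GN5 and 8.10, 7.93 and 7.75 in H5D under vehicle, 2.03-fold higher in GN5 (1.02, adjusted p = 2.84e-05, limma). Under rapamycin it read 7.34, 7.70 and 7.54 against 7.78, 7.66 and 7.41, so that the lines overlapped (-0.09, SE 0.123), and the change was -1.11 (SE 0.179, adjusted p = 0.00674). The epithelial keratin Krt8 read 13.04, 12.99 and 13.05 against 12.37, 12.34 and 12.25 under vehicle, and 12.79, 12.76 and 12.68 against 12.77, 12.75 and 12.72 under rapamycin (0.00, SE 0.0898), with a change of -0.71 (SE 0.119, adjusted p = 0.00796). The tubulin Tuba1a went from 0.77 under vehicle to -0.16 (SE 0.107) under rapamycin. These 3 changes held without each array in turn. Those of Nol10 (-0.80), Wfdc21 (-0.78) and Slc5a3 (0.57) held in 7, 3 and 1 of the 12 refits, and that of the splicing protein Rbm25 (0.75) in all 12. With common-median scaling the change of Rbm25 was not called.

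**Figure D4:**
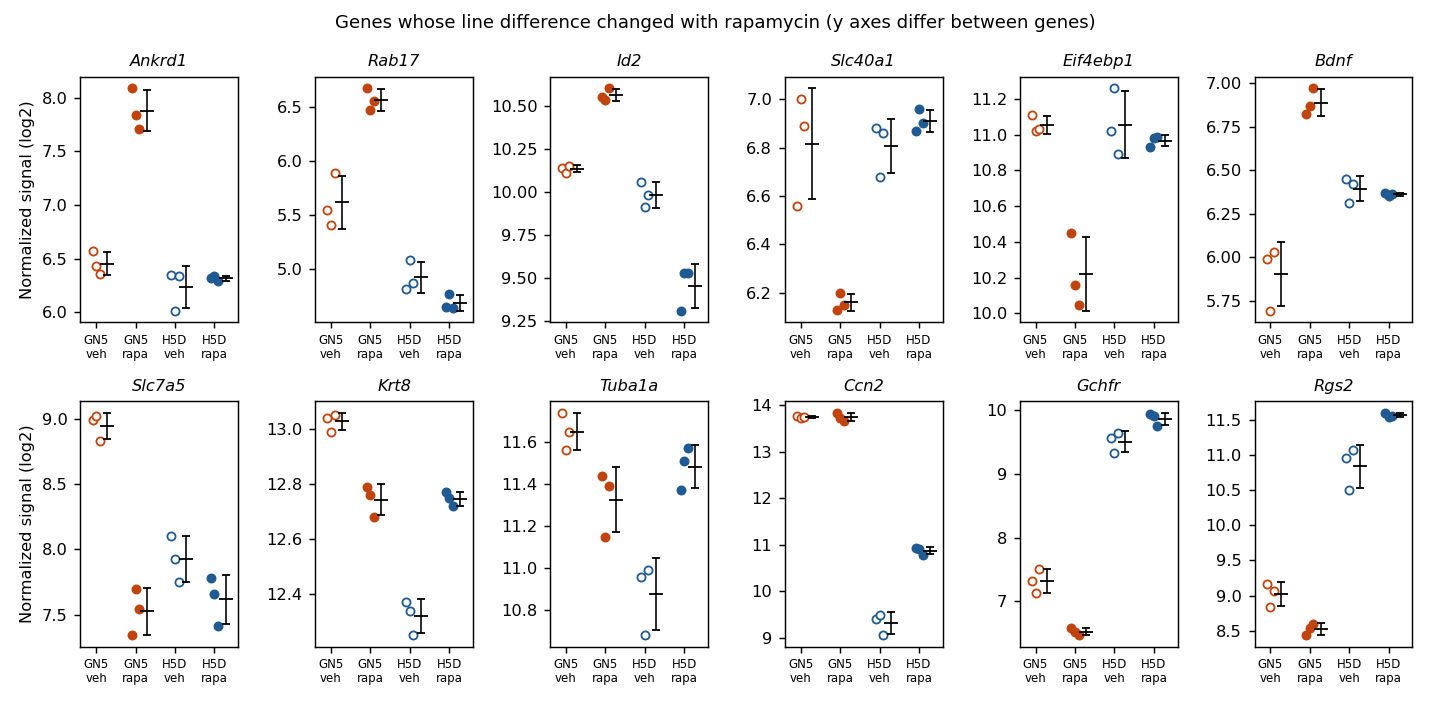
Normalized log2 signal (y axis, own scale for each gene) on each array of the 4 groups for 12 genes whose line difference changed, GN5 in orange and H5D in blue, vehicle open and rapamycin filled, with mean and SD (n = 3 per group). For Ankrd1 the GN5 rapamycin arrays (7.71 to 8.09) lie above all others, for Slc7a5 the lines overlap under rapamycin, and for Bdnf the line that is higher changes.

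Among the named genes with a difference under both treatments, Ccn2 changed the most. It was 21.7-fold higher in GN5 under vehicle (4.44, adjusted p = 2.36e-10) and 7.35-fold under rapamycin (2.88), a change of -1.56 (SE 0.157, adjusted p = 0.000601, limma). The GN5 arrays read 13.76, 13.73 and 13.75 under vehicle and 13.84, 13.73 and 13.67 under rapamycin, while the H5D arrays read 9.41, 9.48 and 9.05 and then 10.92, 10.91 and 10.79, so that the H5D rapamycin arrays lay above the H5D vehicle arrays and the GN5 arrays overlapped. The desaturase Scd narrowed in the same sense, from 2.61 to 1.45, with H5D detected on 1 of 3 vehicle arrays and on no rapamycin array. The proline synthesis enzyme Aldh18a1 (1.73 to 0.81), the bile acid transporter subunit Slc51a (2.18 to 1.27) and the trafficking protein Tmed3 (1.71 to 0.84) were nearer as well, though the change held in 4 of the 12 refits for Tmed3 and in 7 for Aldh18a1, against all 12 for Ccn2, Scd and Slc51a. Differences toward H5D that narrowed were those of the cysteine enzyme Cth (-3.21 to -2.18), the keratin Krt15 (-4.10 to -3.31), Pbld1 (-4.14 to -3.36), the selenium-binding protein Selenbp1 (-2.16 to -1.38) and Rdm1 (-1.03 to -0.27). Of these changes that of Cth held in 10 of the 12 refits, those of Krt15 and Selenbp1 in 8 and those of Pbld1 and Rdm1 in 4, and the rapamycin call of Rdm1 itself ended in 5 of 14 alternative settings.

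Differences that widened were more numerous. Toward GN5, the chemokine Cxcl13 went from 2.03 to 3.38 (change 1.35, SE 0.194, adjusted p = 0.0028, limma), with GN5 arrays at 6.87, 6.35 and 6.63 under vehicle and 8.05, 8.01 and 7.69 under rapamycin and H5D undetected throughout. The MAP kinase phosphatase Dusp1 (3.57 to 4.63), the neuronal intermediate filament Prph (4.88 to 5.90) and monoacylglycerol lipase (Mgll, 2.07 to 3.09) widened too. Toward H5D, Rgs2, which shortens G protein signalling, went from -1.83 to -3.05 (change -1.22, SE 0.191, adjusted p = 0.00546). It read 9.17, 8.83 and 9.06 in GN5 and 10.96, 10.5 and 11.07 in H5D under vehicle, and 8.43, 8.53 and 8.60 against 11.61, 11.55 and 11.56 under rapamycin, with each line moving away from the other. Gchfr, which regulates tetrahydrobiopterin synthesis, went from -2.20 to -3.35, the calmodulin-binding Pcp4 from -1.34 to -2.61, Scd2 from -3.75 to -4.96 and stromelysin (Mmp3) from -3.83 to -4.92. For Mmp3 and Pcp4 the H5D mean was 1.03 and 1.09 higher under rapamycin than under vehicle, and for Scd2 the GN5 mean moved by -1.16. Of the 54 widened differences 34 had moved further from vehicle in GN5 and 20 in H5D, with median absolute shifts of 0.66 and 0.22. Over all 8288 probes tested under rapamycin the counts were 4202 and 4086, with a median absolute shift of 0.13 in each line. The 54 were picked for their change, so these values are descriptions. The changes of the widened genes named here held in all 12 refits, but for Scd2 in 11, and those of Cxcl13, Prph, Mgll, Pcp4 and Mmp3 were not called without GN5 vehicle replicates 2 and 3 together, nor that of Dusp1 with common-median scaling.

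**Figure D5:**
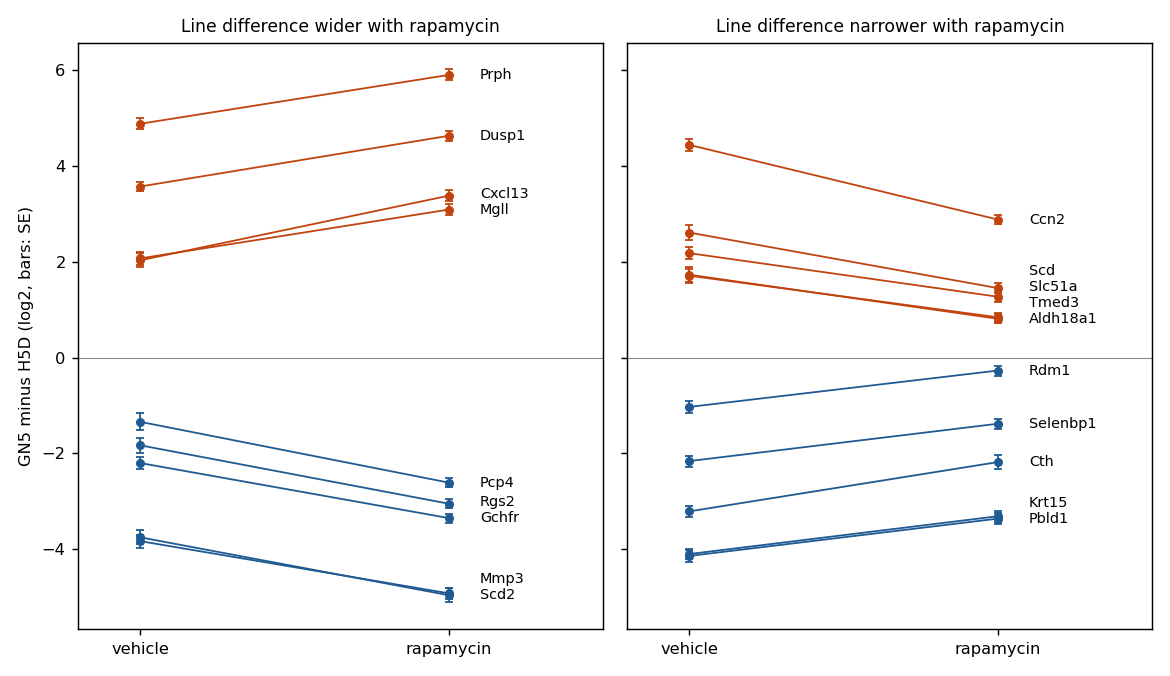
Log2 difference GN5 minus H5D (y axis, error bars are standard errors) under vehicle and rapamycin (x axis) for the named genes that widened and narrowed most in each direction. Lines in orange are genes higher in GN5 and lines in blue genes higher in H5D, and none crosses 0, with Ccn2 falling from 4.44 to 2.88 and Scd2 from -3.75 to -4.96.

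List medians under vehicle and rapamycin, over the members tested, are descriptions whose difference was not tested. The median of the mTOR pathway genes was -0.08 under vehicle and -0.04 under rapamycin, that of collagens 2.47 and 2.21, of chemokines -2.83 and -2.71, of glutathione genes -0.90 and -0.76, and of ATF4 targets 0.44 and 0.24. Larger relative moves were those of TGF-beta and BMP genes (0.39 and 0.87), of growth factors and receptors (0.23 and 0.63) and of fatty acid synthesis (-0.28 and -0.64). Beside a background of 1.54% of the genes tested under rapamycin, the change was called for 5 of 26 ATF4 targets (Asns, Cth, Slc7a5, Psph and Aldh18a1) and for 4 of 20 YAP and TEAD targets (Ankrd1, Ccn2, Cav2 and Gadd45a), and for 1 of 35 mTOR pathway genes, Eif4ebp1. These genes were counted with earlier results of these arrays in view, and the share is a description. The ATF4 count leaned on single arrays: it was 3 without H5D vehicle replicate 1, H5D rapamycin replicate 1 or 2, or GN5 rapamycin replicate 2, it was 2 without GN5 vehicle replicate 2 or 3, 1 (Slc7a5) without GN5 rapamycin replicate 3, and 0 in limma without GN5 vehicle replicates 2 and 3 together, where 9 of the 26 had an unadjusted p below 0.05. With common-median scaling it was 10, of which 3 were among the 5. The YAP and TEAD count was 3 or 4 with 1 array left out, Ankrd1, Ccn2 and Gadd45a being called each time, and 2 without that pair.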

How the data were processed

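Per the file headers, the deposited bead summary table held a linear scanner intensity and a detection p-value for each of 22523 probes on 12 arrays, and the authors had neither subtracted background nor normalized these intensities. The authors' own value table of the same arrays, quantile normalized in BeadStudio and analysed in Partek 6.3, served as an alternative. Here neqc (limma 3.58.1, R 4.3.3) corrected the intensities for background with a normal-exponential model from the detection p-values (offset 16), then quantile normalized all 12 arrays and took log2; these log2 values and the fold changes from them are not the authors' deposited values. A probe was detected at p of at most 0.01 and tested if detected on all 3 arrays of at least 1 group compared. GN5 and H5D were compared on the 6 rapamycin and the 6 vehicle arrays, and the difference between these contrasts on all 12, with lmFit and eBayes (two-sided) and Benjamini-Hochberg adjustment over all probes tested. A difference arose with rapamycin if it was called there, was not called or tested under vehicle, and the change was called.

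The platform annotation gave 13793 probes 1 gene symbol and 8730 none, and symbols were updated through a RefSeq table of GRCr8, where 13752 matched. The brightest tested probe stood for a gene. Named were the 10 largest differences per direction detected on all 6 arrays, the 10 largest bounds, the 10 largest that arose per direction, those called in opposite directions, the 5 largest called under vehicle alone, the 5 most widened and narrowed per direction, the genes of the drug and of the study's assays (Rictor, Cdk2 and Ggt1 were not tested), and up to 4 called members of each gene list with 2 calls or more. Not every gene named through the lists is described, and 1 other gene that the rule names is not reported here. Other list members named here were picked with their values in view. The members and gene lists were chosen with earlier results of these data known. The number of arrays limits the precision. The fits were tested on simulated log2 values with few changed genes and independent noise, which did not test the normalization. Alternatives were another scaling, no background correction, the authors' table, normalization within each treatment, other filters, 1 fit of all arrays, a replicate block, the methods' t-test, and leaving out each array.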

Additional observations from a re-analysis of the deposited data

Results flagged for a closer look

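For 52 named genes the difference between GN5 and H5D under rapamycin differed from that under vehicle, by limma's test of the difference itself over 12 arrays (adjusted p below 0.05). Values are the rapamycin difference minus the vehicle difference on the log2 scale, so positive values mean a shift toward GN5. No explanation was tested.

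Among differences that arose with rapamycin, the shift was 1.34 for Ankrd1, 1.19 for Rab17, 0.95 for Id2, 0.76 for Lypd6b and Cables1, 0.74 for Rom1, 0.72 for Rsrp1, 0.65 for Mmaa, and 0.64 for Mybph and Ddah1. Toward H5D it was -0.90 for Pepd, -0.84 for Lgi4, -0.76 for Slc40a1, -0.74 for Eif4ebp1 and -0.70 for Hint3. Rab17 and Lypd6b were not tested under vehicle, so for them a line difference there was neither called nor excluded.

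Of genes that changed which line was higher, the shift was 1.23 for Hap1, 1.02 for Bdnf and 0.62 for Rasl11b. Of genes called under vehicle alone, it was -1.11 for Slc7a5, -0.93 for Tuba1a, -0.80 for Nol10, -0.78 for Wfdc21, -0.71 for Krt8, 0.75 for Rbm25 and 0.57 for Slc5a3.

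Of genes called under both treatments, the shift toward GN5 was 1.35 for Cxcl13, 1.06 for Dusp1, 1.03 for Cth, 1.02 for Prph and Mgll, 1.01 for the tight junction protein Ocln, 0.97 for Ltbp2, 0.78 for Tagln, Krt15, Pbld1 and Selenbp1, 0.77 for Rdm1, 0.76 for Wnt16, 0.67 for Igf2r and 0.63 for Asns. The shift toward H5D was -1.56 for Ccn2, -1.27 for Pcp4, -1.22 for Rgs2, -1.21 for Scd2, -1.16 for Scd and Gchfr, -1.09 for Mmp3, -0.92 for Aldh18a1, -0.91 for Slc51a, -0.87 for Tmed3, -0.77 for Mnda and -0.76 for Ifi27l2b. Of the 52 shifts, 5 were called under every alternative that gave a value (Ankrd1, Ccn2, Gchfr, Rgs2 and Rab17).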

How the results depend on the processing

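The count of 5988 line differences under rapamycin stayed within 1.5 times under each alternative, from 4434 (probes detected in both lines, of 6581 tested) to 6904 (no filter), and from 5517 to 5967 with 1 array left out. The methods' t-test with a fold of at least 1.2 called 5351 at an unadjusted p of 0.05 and 5105 after Benjamini-Hochberg adjustment. The 4648 differences found under both treatments ranged from 3287 to 4856. Of 201 named rapamycin calls, 186 held under every alternative that gave a value, and none of the 201 turned its direction. Of named values not called, those of Krt8, Rps6kb1 and Wfdc21, all near 0, changed sign under some alternatives and were called under none.

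The changes between treatments were less stable. Their count of 120 was 252 with arrays scaled to a common median (73 of the 120 shared), 46 for probes detected in both lines, 58 to 134 with 1 array left out, and 14 without GN5 vehicle replicates 2 and 3, a choice made with the data in view. The 23 that arose with rapamycin were 76 with common-median scaling (13 shared), 14 with no filter, 13 for probes detected in both lines, 8 to 24 with 1 array left out, and 4 without GN5 vehicle replicates 2 and 3. The cause was not tested. Detection limits the genes dim in 1 line to bounds.

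With the replicate number of the titles as a block, 5868 rapamycin differences and 90 changes were called, and 15 of them arose with rapamycin. The numbers did not pair the samples: deviations of same-numbered GN5 and H5D rapamycin arrays correlated at -0.11, -0.03 and -0.08, those of the vehicle arrays at 0.30, 0.22 and -0.18, and 0 of 3 rapamycin arrays of either line lay closest to its own number.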

Other observations

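Other gene groups differed between the lines under rapamycin. Of 24 interferon and antigen presentation genes, 16 were higher in H5D and 5 in GN5 (median log2 difference -0.62). The interferon-induced Ifi27l2b was 6.02-fold, the peptide transporter Tap2, detected on 1 of 3 GN5 arrays, 3.96-fold and the inflammatory caspase Casp4 at least 2.63-fold higher in H5D. Of 19 integrins and junction genes, 10 were higher in H5D and 6 in GN5. The hyaluronan receptor Cd44 (at least 11.6-fold) and the hemidesmosome integrin Itgb4 (at least 7.13-fold) were higher in H5D, and occludin (Ocln, at least 2.92-fold) in GN5. Of 10 WNT pathway genes, 7 were higher in H5D, among them Wnt16 (at least 3.21-fold), the receptor Fzd1 (at least 3.52-fold) and Wnt5a (3.07-fold), and 3 in GN5, among them Wnt4 (at least 1.68-fold). Of 19 immediate early and MAPK feedback genes, 10 were higher in H5D and 5 in GN5, with the transcription factor Etv4 at least 5.60-fold higher in H5D.

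Of 6 imprinted genes, 3 were higher in each line, Plagl1 (4.05-fold, detected on 1 of 3 H5D arrays) in GN5 beside Igf2, and Ascl2 (4.11-fold, detected on 1 of 3 GN5 arrays) and Snrpn (3.30-fold) in H5D. Differences in general machinery were small. Of 32 proteasome subunits, 62.5% were called against 72.7% of all genes. Of them 12 were higher in H5D and 8 in GN5 (median -0.15, and 16 and 2 with arrays scaled to a common median), with Psma2 1.99-fold higher in H5D. Of 41 genes of oxidative phosphorylation, 15 were higher in GN5 and 10 in H5D (median 0.11), beside 36.6% and 36.1% of all genes. The share called was 61%, and the sign of the median turned with common-median scaling (7 and 12, median -0.07). Of 11 serine and one-carbon enzymes 5 were higher in each line, and betaine-homocysteine methyltransferase (Bhmt), detected on 2 of 3 GN5 arrays, was 8.12-fold higher in H5D. Of 6 metallothionein and iron genes 3 were called, Mt1 (2.46-fold) higher in GN5 and the iron importer Slc11a2 (2.82-fold) and Slc40a1 in H5D.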
